A study of Mus musculus with 20 samples.

Results

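In mouse embryonic fibroblasts, most sites that the condensin II subunit CAP-H2 occupied in both genotypes studied had no peak of its partner CAP-D3. They were chosen by the peak calls themselves: CAP-H2 peaks of wild-type (WT) and mutant cells on chromosomes 1 to 19 were merged where they shared at least 1 bp, regions with a CAP-H2 peak in both genotypes were kept, and those overlapped by a CAP-D3 peak of either genotype were removed. This left 19145 regions, called CAP-H2-only regions here, of 28749 CAP-H2 regions found in both genotypes (66.6%) and of 53137 merged CAP-H2 regions in all. Of the other stable regions, 5792 had a CAP-D3 peak in both genotypes (core regions) and 3812 in a single genotype. Lack of CAP-D3 was not particular to stable regions. It was also lacking at 10946 of 12105 CAP-H2 regions of WT alone and at 10820 of 12283 of the mutant alone. The CAP-D3 lists were shorter than the CAP-H2 lists (17192 and 12926 peaks against 42174 and 42626), which limits how many CAP-H2 regions could have CAP-D3. Because the 4 condensin II lists made the selection, CAP-H2 and CAP-D3 values are described without a test. TFIIIC and H3K27me3, which took no part in it, were compared across libraries.

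Condensin II is a ring-shaped protein complex that shapes chromosomes and, unlike condensin I, stays in the nucleus throughout the cell cycle. CAP-H2 is its kleisin subunit, which closes the ring around the SMC2 and SMC4 arms, and CAP-D3 is a HEAT-repeat subunit that binds the kleisin. TFIIIC recruits RNA polymerase III to genes such as those of transfer RNAs, also occupies sites without the polymerase, and has been linked to condensin. H3K27me3 is the histone mark set by Polycomb repressive complex 2. The retinoblastoma protein pRb binds chromatin regulators through its LXCXE-binding cleft, which the L allele of Rb1 alters.

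The cells were C57BL/6 fibroblasts from E13.5 embryos, cycling at passage 4, either wild type or homozygous for the L allele (Rb1L/L, called RbL). Every cell of an RbL culture carries the mutation, and the labels do not say how many embryos or cultures were used, so p-values measure only the spread between libraries, which may be technical. Chromatin for CAP-D3, CAP-H2 and H3K27me3 was fixed with ethylene glycol bis(succinimidyl succinate), a long-arm protein crosslinker, and then formaldehyde, and chromatin for TFIIIC with formaldehyde alone; the TFIIIC antibody is listed as TFIIIC-220. CAP-H2 and CAP-D3 had 1 library per genotype, so a missing CAP-D3 peak has no replicate check; TFIIIC and H3K27me3 had 2. The series title places the work in a study of how pRb brings condensin II to promoters.

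On chromosomes 1 to 19, the CAP-H2 lists held 42174 (WT) and 42626 (RbL) peaks, the CAP-D3 lists 17192 and 12926, the TFIIIC lists 195239 to 291040 and the H3K27me3 lists 24634 to 55620. Read depth is unknown. TFIIIC peaks covered 6.09% and 7.69% of the span of these chromosomes in the WT libraries and 10.9% and 11.02% in the RbL libraries. The 2 WT TFIIIC lists overlapped each other less than the RbL lists did, with 55.3% of the peaks of WT library 1 found in WT library 2 and 70.3% of those of RbL library 1 in RbL library 2.

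CAP-H2-only regions were narrower and had lower scores than core regions. Their median width was 1070 bp (25th to 75th percentile 921 to 1303), against 1427 bp (1147 to 1929) for core regions. A wider region can more easily meet a CAP-D3 peak, so the rule itself favours narrow regions. Stronger regions are also wider, so the same limit holds for the score. The score is the authors' value per peak, higher for a stronger call, and serves here to rank peaks. The lower of a region's WT and RbL scores is also used to rank and class regions. The CAP-H2 lists differ in score, with medians of 140 in WT and 194 in RbL, which affects which genotype gives the lower score. Its median was 168 in WT and 237 in RbL at CAP-H2-only regions, and 346 and 489 at core regions. The median rank of these peaks in their own list was above 57.1% of all WT CAP-H2 peaks and above 57.4% of all RbL CAP-H2 peaks, near the middle of each list. In 32.5% of them the lower of the 2 scores was under 100, as in 15.1% of core regions.

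Within these regions, the WT and RbL peaks lay in nearly the same position. The rule kept only regions where peaks of both genotypes overlap, so some agreement is by construction. A single WT peak and a single RbL peak made up 18071 of the 19145 regions (94.4%), and a median of 77.9% of a region's length was shared by the peaks of both genotypes. That median was 79.8% in core regions and 81.5% in regions with CAP-D3 in a single genotype. The ranks of the WT and RbL scores followed each other across regions (Spearman's rho 0.64, against 0.84 in core regions), with both libraries of a region sharing its sequence and mappability.

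A few CAP-H2-only regions were among the strongest CAP-H2 sites. In 137 of 19145 CAP-H2-only regions and 350 of 5792 core regions, CAP-H2 had a score of at least 3100 in both genotypes, a value at which many peaks are tied. Such strong sites were rarer here than among core regions. A lower score of at least 500 was found at 9.69% of CAP-H2-only and 34.1% of core regions. By the lower of the 2 scores, the leading region was chr19:9053326-9060315 (all positions are mm9), 6990 bp wide, with CAP-H2 scores of 3168 in WT and 3100 in RbL. It lay 3093 bp from an RbL CAP-D3 peak and 11659 bp from a WT CAP-D3 peak, and had a TFIIIC peak in all 4 libraries, with scores of 117 and 138 (WT) and 175 and 162 (RbL). The second, chr13:74345402-74346927, scored 3166 in WT and 3100 in RbL. It had no TFIIIC or H3K27me3 peak in any of the 8 libraries, and its nearest CAP-D3 peak was 35746 bp away. The next were chr4:147818089-147819513 and chr1:39428516-39434036, with WT scores of 3150 and 3127 and RbL scores of 3100 each.

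Some regions stretched over many kilobases. The widest, chr1:71626132-71651920, covered 25789 bp with 3 WT and 11 RbL CAP-H2 peaks and a highest score of 3100 in both genotypes. Its neighbour chr1:71654438-71671978 was the next in width, at 17541 bp (scores of 3005 in WT and 3100 in RbL), and both carried TFIIIC in all 4 libraries, with scores of 303 and 600.2 (WT) and 627 and 1231 (RbL) at the first. A second such pair, chr6:34564382-34581892 and chr6:34613467-34630010, was 17511 and 16544 bp wide, with TFIIIC peaks in WT library 2 and both RbL libraries. In all, 518 regions exceeded 3 kb (2.71%, against 9.27% of core regions) and 23 exceeded 10 kb.

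CAP-D3 peaks, which by the rule do not overlap these regions, lay at widely varying distances. The median distance from a CAP-H2-only region to the nearest CAP-D3 peak of either genotype was 23795 bp (25th to 75th percentile 8145 to 60532), 738 regions (3.85%) had one within 1 kb, and 2729 (14.3%) had none within 100 kb. CAP-H2 regions called in a single genotype and lacking CAP-D3 gave nearly the same medians, 23825 bp for those of WT and 23088 bp for those of RbL. At 10 kb from the midpoint of a CAP-H2-only region, CAP-D3 covered 1.10% of positions in WT and 0.995% in RbL, above the 0.55% and 0.49% of the whole span of these chromosomes. The most remote region, chr3:43749573-43750205, lay 1058269 bp from a CAP-D3 peak, with CAP-H2 scores of 51.3 in WT and 195 in RbL, and the 4 most remote regions had no TFIIIC or H3K27me3 peak in any library.

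At the edge of the rule, chr12:86216654-86218224 touched a WT CAP-D3 peak without sharing a base, and chr4:20704267-20705653 lay 1 bp from another. Just outside it, chr2:29712626-29713758 shared 1 bp with a WT CAP-D3 peak of score 181, and chr19:7129001-7130358 shared 7 bp with an RbL CAP-D3 peak of score 3100. Stable regions that shared under 50 bp with CAP-D3 numbered 32. The strongest CAP-D3 peak of a core region had a median score of 1598, and none of them was under 100. In regions with CAP-D3 in a single genotype the median was 299.97, and 21 (0.55%) were under 100. The measures are unlike, because a core region takes the higher score of both genotypes and the other regions have a single list. The CAP-D3 list medians were 358 in WT and 740 in RbL.

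TFIIIC was found at 19.7% to 21.8% of CAP-H2-only regions and at a larger share of core regions in every library. Among CAP-H2-only regions, 19.7% had a TFIIIC peak in WT library 1 (95% exact Clopper-Pearson interval 19.1 to 20.2) and 21.0% in WT library 2 (20.4 to 21.5). The RbL libraries gave 21.7% (21.1 to 22.3) and 21.8% (21.2 to 22.4), and these intervals cover the counting of regions only. Core regions had TFIIIC in 52.6% and 48.3% in the WT libraries, against 33.8% and 32.6% for the RbL libraries. The CAP-H2-only share lay below the core share in 4 of 4 libraries, with differences of -32.9, -27.4, -12.1 and -10.8 percentage points and a mean of -20.8 (two-sided exact sign-flip permutation test over libraries, p = 0.125, the smallest that 4 libraries allow). Counting only peaks over the midpoint, the mean difference was -11.9 points. By any overlap, regions with CAP-D3 in a single genotype were intermediate, with a WT mean of 29.8 ± 0.96% and an RbL mean of 23.9 ± 0.11% (SD, n = 2). By midpoint they were intermediate in WT, with a mean of 14.2% against 8.80% at CAP-H2-only and 28.9% at core regions. In RbL they were lowest by midpoint, with 7.16% against 8.80% at CAP-H2-only and 12.5% at core regions.

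Between genotypes, the CAP-H2-only share averaged 20.3 ± 0.93% for WT libraries and 21.7 ± 0.085% for RbL libraries (SD, n = 2), a difference of 1.42 points with no overlap of the libraries (two-sided exact permutation p = 0.333, the smallest that 2 against 2 allow). At core regions the averages were 50.4 ± 2.99% for WT and 33.2 ± 0.83% for RbL libraries, a difference of -17.2 points (exact permutation p = 0.333). The genotype difference of CAP-H2-only regions exceeded that of core regions by 18.7 points (exact permutation p = 0.333, again the smallest possible). The sign at CAP-H2-only regions depended on list length: with the same number of top-scoring peaks from each TFIIIC library, the difference was -3.20 points, while the contrast with core regions was 20.8 points.

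Set against the genome, the TFIIIC share of CAP-H2-only regions lay above that of genome windows in WT and close to it in RbL. When chromosomes 1 to 19 were laid out in windows of 1070 bp, the median width of these regions, 13.8% and 16.5% of windows had a WT TFIIIC peak, and 21.4% and 21.6% an RbL one. The ratio of the CAP-H2-only share to the window share was 1.42 for WT library 1, 1.27 for WT library 2 and 1.01 for each RbL library. For core regions the WT ratios were 3.81 and 2.93, and the RbL ratios 1.58 and 1.51. The windows take in assembly gaps, where no peak can be called. They also have a fixed width, whereas the wider regions can meet more peaks. By midpoint, WT TFIIIC covered 8.47% and 9.13% of CAP-H2-only regions, above its 6.09% and 7.69% of the whole span. RbL TFIIIC covered 8.66% and 8.94% of midpoints, below its 10.9% and 11.02% of the span.

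**Figure D1:**
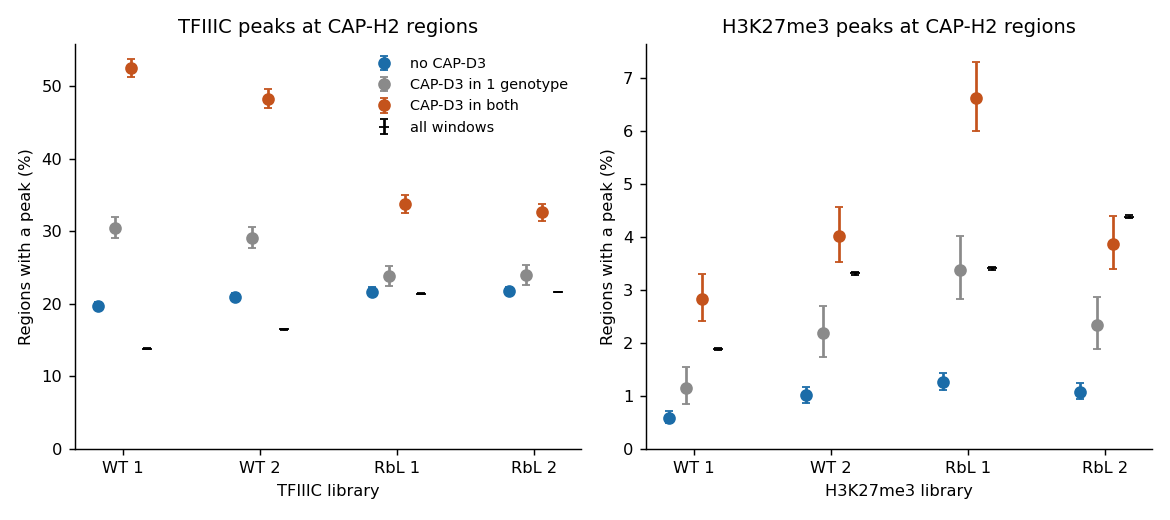
Percentage of stable CAP-H2 regions with a TFIIIC peak (left) or an H3K27me3 peak (right) in each library (x axis), for regions without CAP-D3 (blue), with CAP-D3 in a single genotype (grey) and with CAP-D3 in both (orange), with 95% exact intervals; black dashes are windows of 1070 bp over chromosomes 1 to 19. The blue TFIIIC points lie between 19.7% and 21.8%, and the blue H3K27me3 points lie under the windows in all 4 libraries.

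TFIIIC peaks covered the centre of CAP-H2-only regions less often than positions 10 kb to either side. The midpoint was covered in 8.47% and 9.13% of regions for the WT libraries and in 8.66% and 8.94% for the RbL libraries. At 10 kb the cover was 9.56% and 11.98% for WT, and 15.8% and 15.7% for RbL. The midpoint lay lower in 4 of 4 libraries, with differences of -1.09, -2.85, -7.15 and -6.78 points (mean -4.47, two-sided exact sign-flip permutation p = 0.125, the smallest possible, a test chosen after the profile was seen). This difference averaged -1.97 ± 1.24 points for WT and -6.97 ± 0.26 for RbL libraries (SD, n = 2), with no overlap between genotypes (exact permutation p = 0.333, the smallest possible).

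Core regions showed a different shape in WT and a similar one in RbL. Their midpoints were covered in 31.6% and 26.1% for the WT libraries, above the 13.8% and 17.4% found at 10 kb. For the RbL libraries the cover at 10 kb was 22.7% and 22.9%, and the midpoint differed from it by -9.25 and -11.3 points. At the midpoint of CAP-H2-only regions the genotypes differed by 0.0052 points (exact permutation p = 1), while RbL cover was higher at the flanks, as over the whole span of these chromosomes. With equal numbers of top-scoring peaks, the mean difference between midpoint and flanks was -3.93 points, and its RbL value lay below its WT value by a difference of -3.69.

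**Figure D2:**
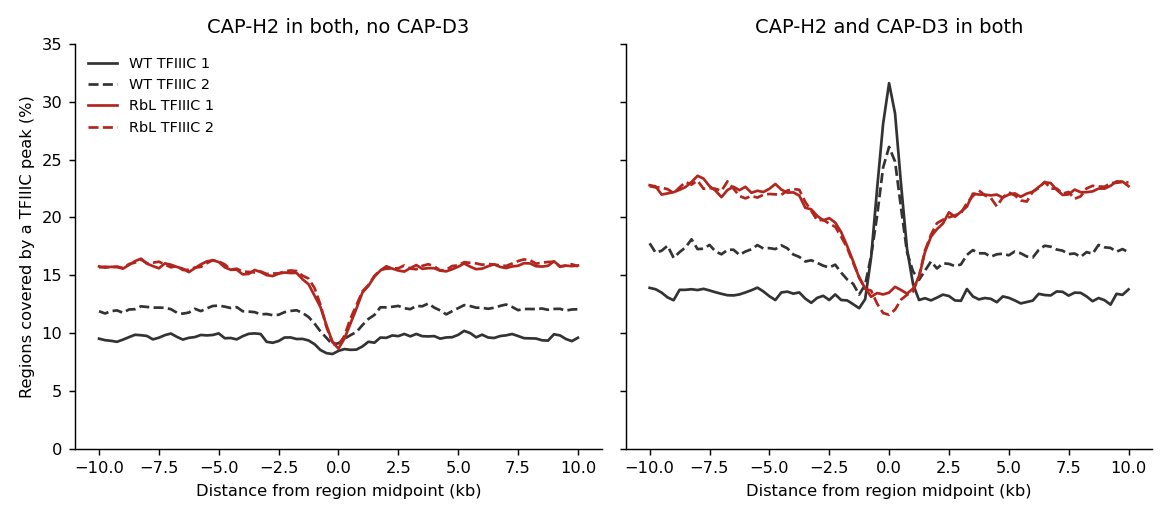
Percentage of regions covered by a TFIIIC peak (y axis) at each distance from the region's midpoint (x axis, kb, in steps of 250 bp), for CAP-H2-only regions (left) and core regions (right), with WT libraries in black and RbL libraries in red. On the left all 4 lines dip to between 8.47% and 9.13% at the midpoint; on the right the WT lines peak at 31.6% and 26.1% and the RbL lines dip.

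Most CAP-H2-only regions had no TFIIIC peak in any of the 4 libraries, 12210 of them (63.8%), near the 59.8% of all merged CAP-H2 regions. It was 63.1% of CAP-H2 regions of WT alone, 66.03% of those of RbL alone, and 31.1% of core regions (1802 of 5792). TFIIIC in all 4 libraries was found at 1673 (8.74%), close to the 9.28% of all merged CAP-H2 regions, and at 18.8% of core regions. TFIIIC limited to the 2 WT libraries was found at 223 (1.16%), against 2.22% of all merged CAP-H2 regions and 8.63% of core regions. It was close to the 1.18% of CAP-H2 regions of WT alone and the 1.23% of those of RbL alone. TFIIIC limited to the 2 RbL libraries was found at 397 (2.07%), near the 2.04% of all merged CAP-H2 regions, and at 0.62% of core regions. The 4 pairings of a WT with an RbL library gave 214 to 249 regions. The WT-specific count therefore lay within the range of the mixed pairings, and the RbL-specific count above it, but with equal numbers of top-scoring peaks the counts were 305 for WT and 203 for RbL.

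Where all 4 libraries had TFIIIC, the strongest case was chr12:114022142-114023022, with a TFIIIC score of 3100 in each library and CAP-H2 scores of 96.5 (WT) and 121 (RbL). This region of 881 bp lay in broad TFIIIC peaks of 9357 to 14103 bp, and had H3K27me3 peaks in WT library 1 and RbL library 2. It was followed by chr7:148823616-148826011, with a TFIIIC score of 2842 in RbL library 1 and 3100 in the other libraries, and CAP-H2 scores of 215 (WT) and 296 (RbL). The third, chr5:125532720-125533978, had TFIIIC scores of 2820 to 3100 and CAP-H2 scores of 98.45 (WT) and 589.7 (RbL). Among the 5 leading regions, the WT CAP-H2 score ran from 96.5 to 576.5.

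Regions with TFIIIC in WT alone were led by chr10:84039636-84040565, with TFIIIC scores of 784 and 1131 in the 2 WT libraries and no RbL peak. Next came chr16:33921371-33923419 (781 and 852) and chr12:88218970-88222452 (496 and 2764), the latter 2151 bp from an RbL CAP-D3 peak. Those with TFIIIC in RbL alone were led by chr4:137083126-137084283, with TFIIIC scores of 2705 and 2889 in the 2 RbL libraries and no WT peak. Next came chr12:114425431-114426142 (2792 and 2059) and chr7:28275045-28277679 (1603 and 2262), the latter with strong CAP-H2 in both genotypes (1226 in WT, 1283 in RbL).

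CAP-H2-only regions with higher CAP-H2 scores overlapped TFIIIC more often, and their share lay below that of core regions in each score class. Stronger regions are also wider, with a median of 1500 bp in the highest class and 904 bp in the lowest, and a wider region can meet more peaks. When all stable regions were divided into 4 equal classes by the lower of their 2 CAP-H2 scores, 43.6%, 65.7%, 77.2% and 79.9% of them, from the highest to the lowest class, were CAP-H2-only. The mean TFIIIC share of CAP-H2-only regions in WT was 30.1%, 21.0%, 18.6% and 15.98% over these classes, and that of core regions 60.0%, 45.8%, 41.2% and 38.4%. In RbL it was 30.1%, 22.1%, 20.7% and 17.8% for CAP-H2-only and 43.8%, 26.9%, 24.5% and 20.2% for core regions. The RbL minus WT difference of CAP-H2-only regions ran from -0.02 points in the highest class to 2.13 in the third, whereas that of core regions ran from -16.2 to -18.9.

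By width, TFIIIC was found at 14.02% to 17.4% of the narrowest of 4 equal width classes of CAP-H2-only regions (up to 921 bp) and at 33.9% to 35.7% of the widest (from 1303 bp), over the 4 libraries. Overlap of any base rises with width by construction. At the midpoint, TFIIIC cover showed no steady rise, with 7.27%, 6.41%, 7.29% and 12.9% from narrowest to widest in WT library 1 and 9.11%, 6.12%, 6.498% and 12.9% in RbL library 1. Of the 518 regions over 3 kb, 65.6% to 69.1% had a TFIIIC peak. When both classes were limited to the width range from the 25th to the 75th percentile of core regions, the mean difference in TFIIIC share from core regions was -14.7 points, in place of -20.8.

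**Figure D3:**
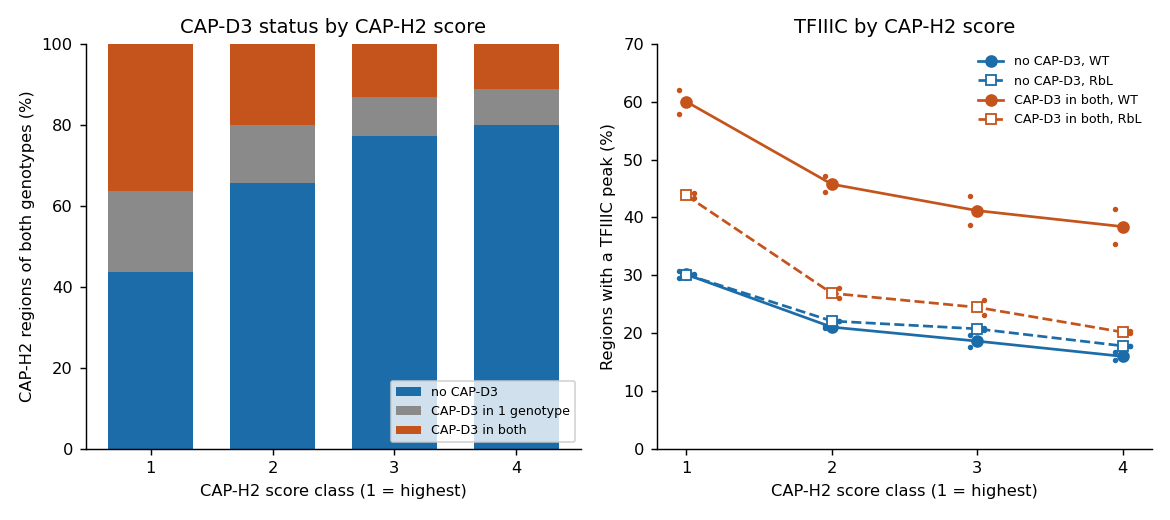
Left: share (%) of stable CAP-H2 regions in each of 4 equal CAP-H2 score classes (1 is the highest) without CAP-D3 (blue), with it in a single genotype (grey) and in both (orange). Right: percentage with a TFIIIC peak in the same classes, as means of 2 libraries (lines and large symbols; small dots are libraries); the blue WT and RbL lines stay within 2.13 points of each other, and for the orange ones RbL minus WT is -16.2 to -18.9 points.

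The TFIIIC share of CAP-H2-only regions was lower far from CAP-D3, in all 4 libraries. At the 738 regions up to 1 kb from a CAP-D3 peak it was 27.8% and 30.8% for the WT libraries, and 30.2% and 26.7% for the RbL ones. Between 10 and 50 kb the WT libraries gave 20.8% and 22.1%, and the RbL ones 23.2% and 23.7%. Over 100 kb away the WT libraries gave 7.15% and 6.52%, and the RbL ones 6.67% and 6.85%. The median of the lower CAP-H2 score was between 139 and 148 in all 5 distance classes. TFIIIC in the surroundings moved with distance: TFIIIC cover 10 kb from the midpoint was 11.2% (WT library 1) to 20.6% (RbL library 1) in the nearest class and 4.31% to 7.16% in the farthest, and midpoint cover was 2.24% to 2.89% in the farthest class. The part of this local TFIIIC cover in the decline was not tested.

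**Figure D4:**
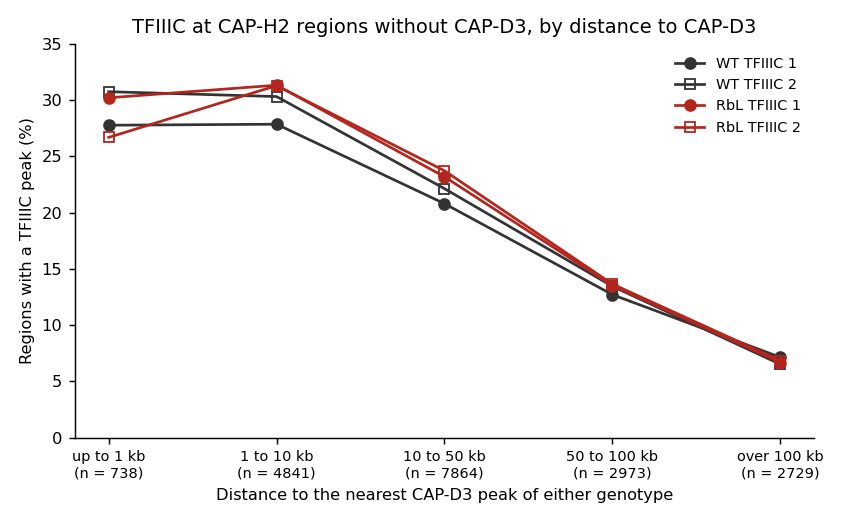
Percentage of CAP-H2-only regions with a TFIIIC peak (y axis) by distance to the nearest CAP-D3 peak (x axis, 5 classes with their numbers of regions), with 1 line per TFIIIC library, WT in black and RbL in red. The 4 lines run together, from 26.7% to 30.8% in the nearest class to 6.52% to 7.15% in the farthest.

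H3K27me3 was scarce at CAP-H2-only regions in all 4 libraries. A peak was found at 113 and 193 of them for the WT libraries (0.59% and 1.01%), and at 241 and 207 for the RbL libraries (1.26% and 1.08%), under the 1.88% to 4.38% of windows of 1070 bp in every library. By mean ratio to windows, CAP-H2 regions of WT alone also lay below windows (0.61 for WT and 0.54 for RbL libraries). So did those of RbL alone (0.57 and 0.51) and those with CAP-D3 in a single genotype (0.64 and 0.76). Core regions had H3K27me3 in 2.83% and 4.02% for WT, and 6.63% and 3.87% for RbL libraries. The CAP-H2-only share was lower than the core share in 4 of 4 libraries (mean difference -3.35 points, two-sided exact sign-flip permutation p = 0.125, the smallest possible). This difference was -1.89 points with equal numbers of top-scoring peaks, -1.95 by midpoint and -1.95 in the same width range. As with TFIIIC, the midpoint was covered less than positions 10 kb away, 0.35% against 0.85% in WT library 1 and 0.54% against 2.23% in RbL library 2, and in the remaining 2 libraries as well.

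Between genotypes, the share averaged 0.80 ± 0.30% for WT and 1.17 ± 0.13% for RbL libraries (SD, n = 2; difference 0.37 points, exact permutation p = 0.333, the smallest possible), and that of windows averaged 2.59% and 3.89%. Relative to windows the mean ratio was 0.31 in both genotypes. The genotype difference was -1.45 points against that of core regions (exact permutation p = 0.667) and 0.095 with equal numbers of top-scoring peaks, the opposite sign. Per the sample titles, the condensin II libraries share their input with H3K27me3 library 2 in WT and library 1 in RbL. Those libraries gave the higher H3K27me3 share of each genotype at CAP-H2-only and core regions. Relative to windows, WT library 2 lay below WT library 1 (0.305 and 0.314 at CAP-H2-only regions, 1.22 and 1.51 at core regions). RbL library 1 lay above RbL library 2 (0.370 and 0.247 at CAP-H2-only regions, 1.95 and 0.883 at core regions). The part of the shared input was not tested.

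Of the 411 CAP-H2-only regions with an H3K27me3 peak in any library, 244 had it in 1 library and 63 in all 4. The 63 were 0.33% of CAP-H2-only regions, against 0.719% of all merged CAP-H2 regions. H3K27me3 limited to the 2 RbL libraries was found at 14 (0.073%, against 0.145% of all merged regions), and limited to the 2 WT libraries at 1 (0.0052%, against 0.0207%). The strongest of the 63 was chr7:108969756-108971271, with H3K27me3 scores of 3100 in each library and CAP-H2 scores of 827 in WT and 970 in RbL. It was followed by chr11:69779450-69781336, also at 3100 in each library, with CAP-H2 scores of 582 and 253. Of the RbL-specific ones, chr9:47382606-47383912 had H3K27me3 scores of 2491 and 2953, and strong CAP-H2 in both genotypes (917 in WT and 1515 in RbL). The single WT-specific region, chr11:120582158-120584109, had weak H3K27me3 scores of 194 and 126.

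The H3K27me3 peaks that did mark these regions ranked above the middle of their own lists, and the TFIIIC peaks near it. Wider peaks can meet a region more easily. The widest H3K27me3 peak at a region had a median width of 885 and 905 bp (WT) and 807 and 1143 bp (RbL). In the whole lists the medians were 631 and 628 bp (WT) and 640 and 646 bp (RbL). The median H3K27me3 peak at a CAP-H2-only region stood above 75.01% and 71.1% of all peaks for the WT libraries, and above 61.7% and 81.8% for the RbL libraries. At core regions the H3K27me3 values were 82.8% and 61.8% for WT, and 22.5% and 75.1% for RbL libraries. For TFIIIC at CAP-H2-only regions, the values were 46.4% and 53.1% for WT, and 58.4% and 58.5% for RbL libraries, near the middle of each list.

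TFIIIC and H3K27me3 were compared at the same regions. Of the 63 with H3K27me3 in all 4 libraries, 6 (9.52%) had TFIIIC in all 4, against 8.74% of those without; for core regions it was 68 of 103 (66.02%) against 17.9%. Within a library pair of the same genotype, TFIIIC was present at 18.1% to 28.3% of the CAP-H2-only regions with H3K27me3 and at 19.6% to 21.8% of those without it. At core regions TFIIIC was found at 53.6% to 70.1% of regions with H3K27me3 and at 31.1% to 52.04% of those without. The strongest of the 6 by CAP-H2 was chr7:5002442-5006129, with CAP-H2 at 3100 in both genotypes, TFIIIC scores of 165 and 170.02 (WT) and 297 and 185 (RbL), and H3K27me3 scores of 333 and 616 (WT) and 2817 and 897 (RbL). Neither TFIIIC nor H3K27me3 was called in any of the 8 libraries at 11945 CAP-H2-only regions (62.4%, 95% exact interval 61.7 to 63.1), against 1679 core regions (29.0%). These are part of the 12210 without TFIIIC, a share near that of all merged CAP-H2 regions.

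CAP-H2-only regions were spread over all 19 autosomes, at 6.39 (chromosome 14) to 10.7 (chromosome 11) per Mb. They made up 62.2% (95% exact interval 58.8 to 65.4) of the stable CAP-H2 regions of chromosome 19, 62.2% of chromosome 17 and 62.8% of chromosome 11, and 70.7% (67.9 to 73.3) of chromosome 16. Chromosomes 11, 19 and 17 also had the most core regions per Mb, at 4.02, 3.50 and 3.22, where chromosome 16 had 1.99. The share counts core regions in its denominator, so it is lower where they are dense by construction. The numbers of CAP-H2-only and core regions per Mb ran in parallel over the 19 chromosomes (Spearman's rho 0.56), which share the same libraries and rule. The TFIIIC share of CAP-H2-only regions was higher in RbL than in WT on 18 of 19 chromosomes, with the largest difference on chromosome 4 (23.2% and 26.4%) and the reverse on chromosome 1 (15.7% and 15.3%). These counts use the full lists, longer in RbL; over all chromosomes the difference was -3.20 points at equal list lengths and 0.0052 by midpoint.

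**Figure D5:**
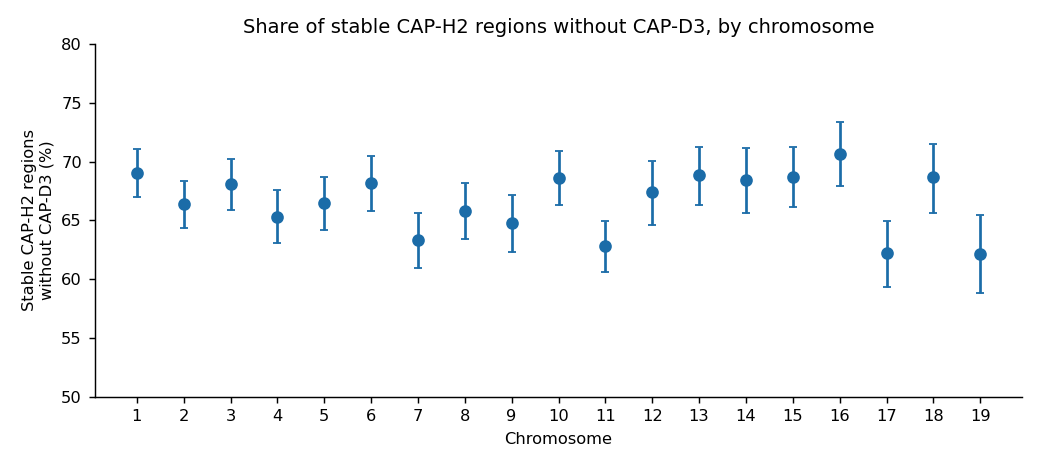
Share (%) of stable CAP-H2 regions that had no CAP-D3 peak, by chromosome (x axis), with 95% exact intervals; the y axis begins at 50. Chromosomes 19, 17 and 11 are lowest, at 62.2% to 62.8%, and chromosome 16 is highest, at 70.7%.

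CAP-H2-only regions lay nearer to each other than to core regions, which they outnumber 19145 to 5792. The median gap to the next CAP-H2-only region was 16882 bp, and 39.2% had one within 10 kb, whereas 12.4% had a core region within 10 kb. Of 2427 windows of 1 Mb, 222 held none and the median window held 7, while 133 windows (5.48%) with 20 or more held 17.2% of all CAP-H2-only regions. The densest, chr16:24000001-25000000, held 57 of them among 64 stable CAP-H2 regions, with 2 core regions. In chr2:27000001-28000000 there were 51, of which 47 had TFIIIC in at least 1 library, and in chr6:17000001-18000000 there were 44, of which 8 did, so windows of similar CAP-H2 density differed widely in TFIIIC. Among all CAP-H2-only regions the share was 36.2%.

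Chains of CAP-H2-only regions less than 10 kb apart were longest at chr11:45873217-45964103, with 19 regions over 90887 bp. In this chain 16 of 19 had a TFIIIC peak in at least 1 library, against 36.2% of all CAP-H2-only regions. The median of the lower CAP-H2 score was 100.4, and CAP-D3 peaks (1 of WT, 3 of RbL) lay between the regions. A chain at chr4:63614351-63708783 held 16 regions with a median lower score of 518, no CAP-D3 peak in either genotype over its 94433 bp, and TFIIIC in at least 1 library at 11 of 16. The third, chr2:27809309-27873560, held 15 regions, 14 of them with TFIIIC in all 4 libraries, against 8.74% of all CAP-H2-only regions. No region of these chains had an H3K27me3 peak. The mark was found in any library at 2.15% of all CAP-H2-only regions, and chains of 19, 16 and 15 regions are too few to differ from that share. Chains of 5 or more held 911 of the 19145 regions.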

How the data were processed

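The data analysed were 12 peak lists, 1 for each immunoprecipitated library, and none of the 8 inputs. Bowtie2 2.3.0, MACS 1.4.0rc2 and build mm9 are named in the submitters' processing notes, with no settings. Each line deposited by the authors has the peak's coordinates and a score without a column name; in MACS this is -10 times the log10 of a p-value. The lowest scores were 50 to 50.4. The sources used here do not state read depth. The members and lists were chosen with earlier results of these data known.

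Overlap meant at least 1 shared bp, and positions are 1-based. A region's score is that of its highest peak. Shares carry exact binomial intervals; libraries were the replicates in two-sided exact permutation tests (Python 3.11.15, scipy 1.17.1). Overlap and class functions were tested on simulated peaks. Regions were named by a fixed rule: the leading 4 or 5 by CAP-H2 score, width, distance to CAP-D3, and TFIIIC or H3K27me3 pattern, and the densest windows and chains; ties went to the higher mean score. Profiles by distance from midpoints, and distance classes, were added after the first results. Alternatives were a score of at least 100, no CAP-D3 within 1 kb, midpoint overlap, equal list lengths, equal widths, other merging, leaving out each replicate, replicate numbers as a block, and chromosome X added (chosen after seeing the data). Genes and sequences were not analysed here.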

Additional observations from a re-analysis of the deposited data

Results flagged for a closer look

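The genotype difference in TFIIIC share ran in opposite directions at CAP-H2-only and core regions, each without overlap between WT and RbL libraries, and the 2 differences were 18.7 percentage points apart (two-sided exact permutation p = 0.333, the smallest possible with 2 against 2 libraries). The small positive difference at CAP-H2-only regions changed sign with equal list lengths, as given below.

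Chromosome X, left out of the selection, held 268 regions that met the same rule, 84.3% of its 318 CAP-H2 regions of both genotypes, with 33 core regions. TFIIIC was found at 2.99% and 14.2% of the 268 in WT libraries 1 and 2 and at 5.97% and 12.3% in RbL libraries 1 and 2, a spread within each genotype that the autosomal regions did not have. H3K27me3 was found at 0, 19, 1 and 1 of the 268 in WT libraries 1 and 2 and RbL libraries 1 and 2. A count of 0 of 268 allows a share of up to 1.12%. The lists themselves also differed outside chromosomes 1 to 19. WT H3K27me3 library 2 held 45979 peaks in all and 42944 on chromosomes 1 to 19, against 24741 and 24634 in library 1. For WT TFIIIC these numbers were 239960 and 230951 in library 2, and 200350 and 195239 in library 1. The share over all of chromosome X was not computed, so the spread cannot be called particular to these regions.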

How the results depend on the processing

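The number of CAP-H2-only regions was 12950 to 19413 over 5 alternatives. The contrasts of TFIIIC share with core regions, of H3K27me3 share with core regions, and of the TFIIIC midpoint with its flanks kept their direction in all alternatives run. Their sizes ranged from -24.1 to -11.9, from -3.72 to -1.89 and from -5.60 to -3.58 points. With equal numbers of top-scoring peaks, the RbL minus WT difference of TFIIIC at CAP-H2-only regions was -3.20 points, and the H3K27me3 genotype difference against core regions was 0.095; shorter RbL lists are part of that alternative. Counts of genotype-specific regions depended most on the settings. For TFIIIC in WT alone (223), they were 132 by midpoint and 95 in the core width range, and 420 to 927 when a library was left out. For TFIIIC in RbL alone (397), they were 256 at a score of at least 100, 195 by midpoint, 203 at equal lengths and 114 in the core width range, and 728 to 966 with a library left out. For H3K27me3 in WT alone (1), they were 2 by midpoint, 2 at equal lengths, 0 in the core width range, and 5 to 68 with a library left out. For H3K27me3 in RbL alone (14), they were 3 in the core width range and 26 to 114 with a library left out. Leaving out a library loosens the rule for that genotype by construction. With the replicate number as a block, the TFIIIC difference at CAP-H2-only regions was 1.42 points (exact p = 0.5 over 2 pairs, the smallest possible); same-numbered libraries did not deviate together (correlation 0.0046 for TFIIIC and 0.023 for H3K27me3), so the numbers give no pairing. No setting can show what read depth, unknown here, adds to list length.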
